A study of Mus musculus with 12 samples.

Results

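The 9 Wnt ligand genes Wnt2, Wnt2b, Wnt3a, Wnt4, Wnt5a, Wnt7a, Wnt7b, Wnt9a and Wnt11 were followed through single-nucleus RNA libraries of 12 mouse lungs. Their rows were found by gene symbol, as 9 of the 31053 genes listed and 9 of the 19 Wnt ligand genes listed. Raw UMIs (unique molecular identifiers, 1 per captured RNA molecule) of these genes were summed per library and per cell class. Each class was named from fixed marker genes, and the 9 ligands were left out of the genes used for clustering.

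All groups were C57BL/6J wild-type mice, with 3 lungs in each of 4 groups. PBS_Vehicle lungs received intratracheal saline and an oral vehicle of N-methyl-2-pyrrolidone with polyethylene glycol. PBS_NVP-BHG712 lungs received saline and oral NVP-BHG712, an inhibitor of the receptor tyrosine kinase EphB4. Bleo_Vehicle lungs received bleomycin, a drug that injures the alveolar epithelium and is followed by fibrosis, and the vehicle. Bleo_NVP-BHG712 lungs received bleomycin and the inhibitor. Lungs were perfused and frozen, and nuclei were sorted on DAPI, so that cytoplasmic RNA was largely lost before capture. The comparisons ask where in the lung each ligand was transcribed, and whether its level changed with bleomycin and with the inhibitor after bleomycin.

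Wnt ligands are secreted glycoproteins that carry a lipid added by Porcn, and Wls takes them to the cell surface. In the canonical branch a ligand joins a Frizzled receptor to Lrp5 or Lrp6, β-catenin is spared from destruction, and TCF/LEF factors switch on targets such as Axin2. In the other branches Ror1, Ror2, Ryk or Ptk7 take part without β-catenin. In the lung, Wnt2 and Wnt2b of the mesenchyme are known for specifying the organ from the foregut, Wnt5a for shaping distal airways, and Wnt7b for growth of the embryonic lung.

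The genes lie on 7 chromosomes of GRCm38. Wnt3a (chr11:59248033-59290752, minus strand) and Wnt9a (chr11:59306928-59333552, plus strand) are head-to-head neighbours, with 16176 bases between their starts and 0 genes between them. Wnt2 (chr6:17988940-18030585) and Wnt7a (chr6:91363981-91411363) share a chromosome, both on the minus strand. Wnt5a (chr14:28504750-28527448, plus strand), Wnt7b (chr15:85535437-85582473, minus strand) and Wnt11 (chr7:98835112-98855195, plus strand) each overlap a gene on the opposite strand, and Wnt2b (chr3:104945272-104961921, minus strand) overlaps a predicted gene on its own strand. Wnt4 lies at chr4:137277489-137299726 on the plus strand.

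RefSeq promoter entries on GRCm38.p6 were matched for 7 of the 9 ligands, and the 250 bases before each start were read. The promoters of Wnt3a and of Wnt10b, a ligand outside the 9 that moved in the same direction in type I alveolar nuclei, are shown. Wnt3a and Wnt10b are the ligand genes called in Bleo_Vehicle against PBS_Vehicle in that class. CpG dinucleotides are in capitals, 5′ to 3′ on the gene's strand. Wnt3a is read from chr11:59290752-59291001 and Wnt10b from chr15:98778151-98778400, both on the minus strand.
Wnt3a: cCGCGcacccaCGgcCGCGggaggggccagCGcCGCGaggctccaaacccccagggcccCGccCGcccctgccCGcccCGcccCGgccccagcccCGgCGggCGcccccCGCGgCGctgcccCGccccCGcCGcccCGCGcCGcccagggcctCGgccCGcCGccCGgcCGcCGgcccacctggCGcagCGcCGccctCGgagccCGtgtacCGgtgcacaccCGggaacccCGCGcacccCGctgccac
Wnt10b: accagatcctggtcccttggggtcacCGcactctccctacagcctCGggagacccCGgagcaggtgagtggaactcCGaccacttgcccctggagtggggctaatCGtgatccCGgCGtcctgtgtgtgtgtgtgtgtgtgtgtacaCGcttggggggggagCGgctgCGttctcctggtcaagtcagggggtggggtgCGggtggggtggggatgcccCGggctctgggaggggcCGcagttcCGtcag
The Wnt3a window held 41 CpG and 87.6% G or C, and the Wnt10b window 14 CpG and 66.8%, beside a median of 6 CpG and 52.4% over 32851 mouse promoter windows. Among the 7 matched ligands the windows ran from 16 CpG, at the second listed start of Wnt11, to 48 CpG for Wnt9a. The TCF/LEF letters CTTTGA or CTTTGT, on either strand, were in 27.6% of all windows. Among the ligands they were found in the window of the first listed Wnt11 start alone, 50 bases before that start.

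Libraries stood apart in ways that their groups did not set. Summed counts ran from 3556084 to 61947690 UMIs per library, and 44611 nuclei were kept of 49163 barcodes. Over the 2000 most variable genes, 8 of the 12 libraries correlated best with a library of another group, and 4 (the 3 Bleo_Vehicle libraries and Bleo_NVP-BHG712 replicate 1) with one of their own. The highest r lay between replicate 1 of PBS_Vehicle and replicate 1 of PBS_NVP-BHG712 (0.94), while replicates 1 and 2 of Bleo_NVP-BHG712 were at 0.30. No Bleo_Vehicle library exceeded 0.124 with any other group. Among themselves the Bleo_Vehicle libraries were at 0.68 (replicates 1 and 2), 0.56 (2 and 3) and 0.19 (1 and 3). Mitochondrial RNA took a median of 2.56%, 1.32% and 0.668% of UMIs per nucleus in Bleo_Vehicle, and no median elsewhere was over 0.0496%. No sequencing run or batch number in the labels joins Bleo_Vehicle with another group, so in every comparison with Bleo_Vehicle below, group and run cannot be told apart. The 3 Bleo_NVP-BHG712 libraries share 1 run that holds no other group, so the same is true of Bleo_NVP-BHG712 against PBS_NVP-BHG712.

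**Figure D1:**
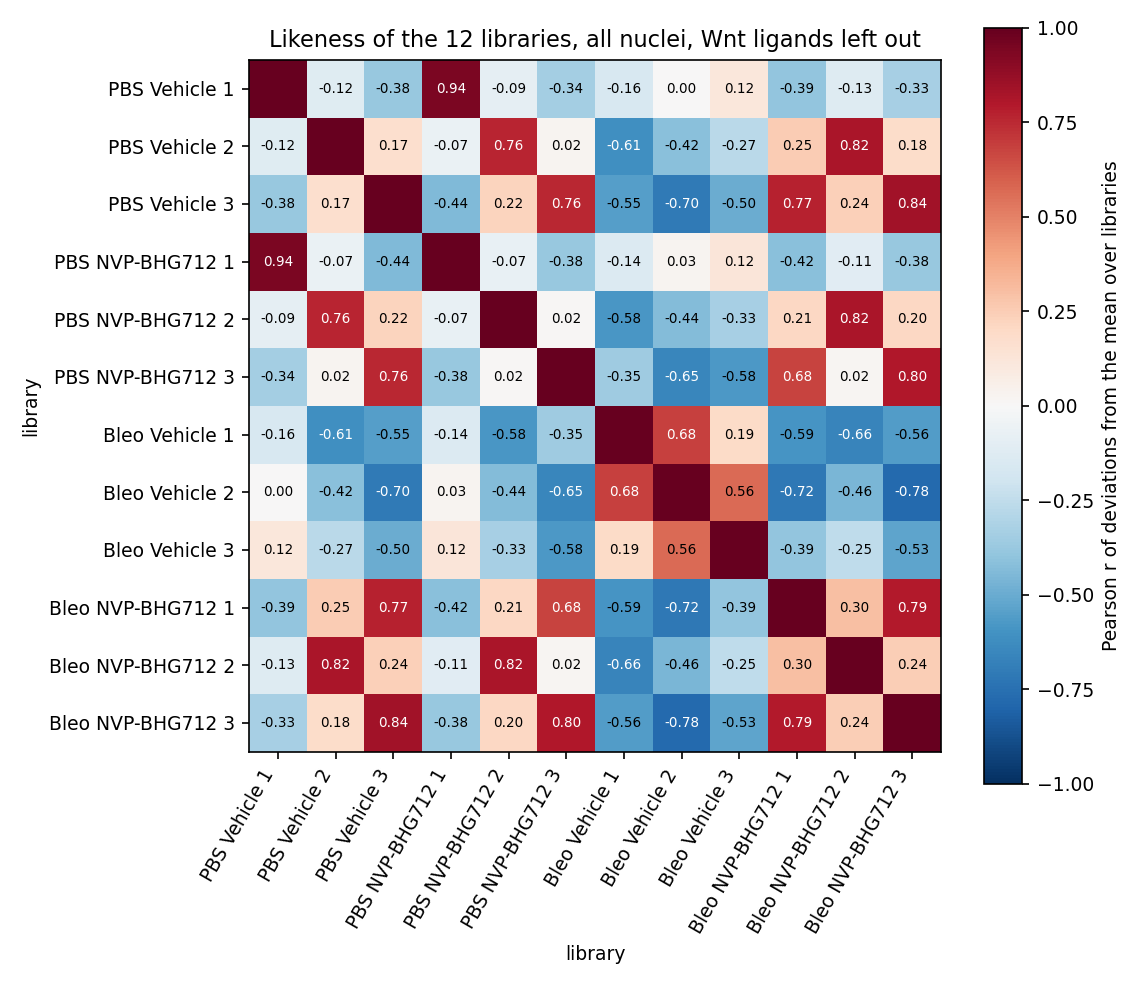
Pearson r between each pair of the 12 libraries over the 2000 most variable genes, with each gene centred over libraries and the 9 ligands left out; rows and columns are libraries by group and replicate. The 3 Bleo_Vehicle libraries are unlike the rest (highest r with another group 0.124), and 8 libraries are most like a library of another group. Among the Bleo_Vehicle libraries r is 0.68 and 0.56, but 0.19 between replicates 1 and 3.

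The clearest niche was the type I alveolar cell, the thin epithelium through which gas diffuses (6466 nuclei, named from 7 markers). Wnt3a, a potent canonical ligand, was concentrated there. Of 6523 Wnt3a UMIs in all kept nuclei, 91.4% came from type I cells. The median over libraries was 159 CPM (UMIs of the gene per 1000000 UMIs of the class; range 29.9 to 224), and type I cells were above type II cells, the next class, in 12 of 12 libraries. Type II cells, the surfactant-making epithelium, had a median of 17.6 CPM. As a ratio of the means over libraries, Wnt3a in type II cells was 12.6% of its type I level. On the same basis, type I marker genes themselves stood at a median of 3.60% of their type I level in type II cells, so the Wnt3a share there was above most of them, within their range of 1.17% to 29.6%.

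Wnt7a, a ligand of epithelia, had the same leading class. It stood at a median of 27.7 CPM in type I cells (range 15.9 to 74.7), 87.1% of its 1338 UMIs came from them, and in 12 of 12 libraries it was above type II cells, where the median was 1.57 CPM. Wnt3a and Wnt7a were seen together in few nuclei. After thinning to 1000 UMIs, 825 of 6184 type I nuclei had a Wnt3a UMI, 183 had a Wnt7a UMI and 29 had both, 0.469% beside 0.395% if the genes were unrelated. At this depth a nucleus can carry either RNA unseen.

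Fibroblasts, the stromal cells of the alveolar wall and vessel sheath (9448 nuclei), held most of Wnt2. The gene stood at a median of 75.9 CPM (range 28.3 to 144), 88.1% of its 3130 UMIs came from fibroblasts, and it was above ciliated cells, the next class at 10.0 CPM, in 12 of 12 libraries. Within the fibroblasts, Wnt2 was highest in the alveolar fibroblast-like subcluster s0 (median 115 CPM) and lowest in the adventitial-like subcluster s4 (9.65 CPM). The fibrotic-like subcluster s3 was between them at 64.4 CPM.

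Wnt5a, the best known ligand of the β-catenin-independent branches, had the reverse order among these subclusters. It stood at 46.8 CPM in s4 and at 8.76 CPM in s0. Across classes its leading place was the peribronchial fibroblast, which lies around airways (433 nuclei), with a median of 136 CPM over the 10 libraries with at least 20 such nuclei and a range of 34.1 to 287. It was above ciliated cells (19.4 CPM) in 10 of 10 of these libraries. Pericytes (18.7 CPM), club cells (14.8), fibroblasts (14.1) and mesothelial cells (13.8) followed, and the order of these neighbours does not stand out of their spread. Because fibroblasts are many, they still gave 46.3% of the 1226 Wnt5a UMIs. In 8220 fibroblasts thinned to 1000 UMIs, 10 nuclei had both Wnt2 and Wnt5a.

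Wnt11 marked ciliated cells, the beating cells of the airway (1712 nuclei). Its median was 61.4 CPM (range 28.6 to 93.7), 74.4% of its 484 UMIs came from this class, and in 9 of 9 libraries with both classes it was above mesothelial cells, the next class at 4.79 CPM, with no overlap of the ranges. Wnt4 had 2 leading places that could not be ordered. Pericytes, the contractile cells around capillaries, stood at 40.4 CPM over 8 libraries (range 11.5 to 89.6) and ciliated cells at 32.7 CPM, with pericytes higher in 6 of 8 libraries. Smooth muscle, with 14 Wnt4 UMIs, entered in only 3 libraries, and ciliated cells were above it in 1 of them. Its place beside these classes is therefore open. Fibroblasts, at 4.89 CPM, held 31.8% of the 829 Wnt4 UMIs. As a ratio of the means over libraries, Wnt4 in ciliated cells was 74.6% of its pericyte level, while pericyte markers were at a median of 0.921% of theirs, with a highest value of 1.60%.

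Wnt9a was highest in mesothelial cells, the covering of the lung surface (626 nuclei), at a median of 38.0 CPM (range 25.2 to 101), above type I cells at 11.7 CPM in 9 of 9 libraries. Type I cells still gave 50.4% of its 1051 UMIs, and its neighbour Wnt3a had its own leading class there. In fibroblasts Wnt9a was highest in the adventitial-like subcluster s4 at 34.2 CPM. Wnt7b had no leading class that stood out of the spread. Ciliated cells (14.6 CPM), mesothelial cells (10.9), type II cells (9.53) and club cells, the secretory cells of the airway (7.92), lay close together, and ciliated cells were above mesothelial cells in only 5 of 9 libraries. As a ratio of the means over libraries, ciliated markers were at a median of 0.460% of their ciliated level in type II cells, and Wnt7b at 70.7% of its own. Wnt2b had 137 UMIs in all, no class above a median of 1.38 CPM, and is not placed.

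**Figure D2:**
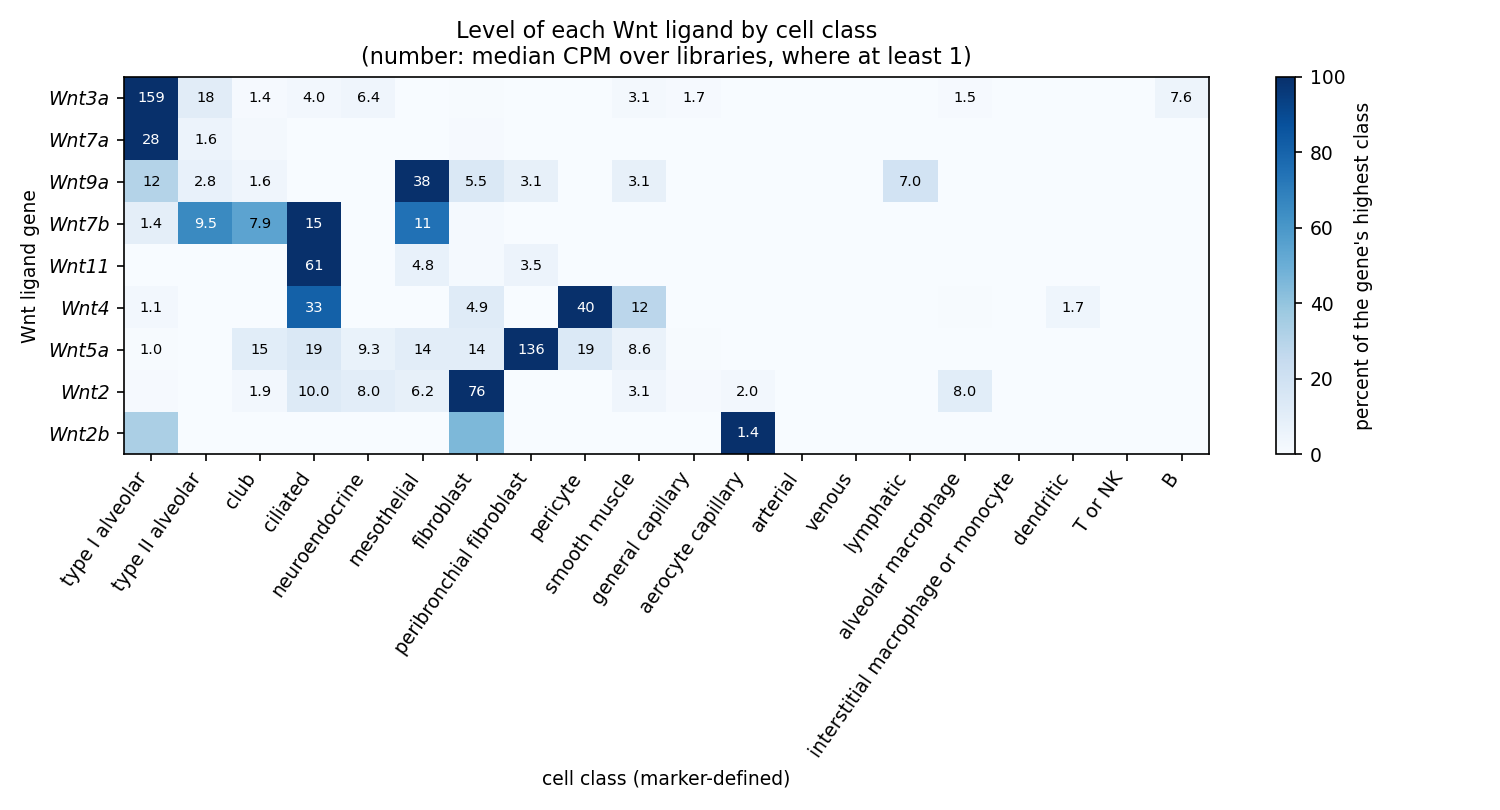
Level of the 9 ligands (rows) in 20 named cell classes (columns), coloured by the median CPM over libraries as a percent of that gene's highest class; printed numbers are median CPM of at least 1. Wnt3a and Wnt7a peak in type I alveolar cells, Wnt2 in fibroblasts, Wnt5a in peribronchial fibroblasts, Wnt4 in pericytes and ciliated cells, Wnt11 in ciliated cells and Wnt9a in mesothelial cells.

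The share of nuclei with a UMI was low for every ligand. Thinned to 1000 UMIs, Wnt3a was seen in 13.3% of type I nuclei, Wnt5a in 12.5% of peribronchial fibroblasts, Wnt4 in 6.49% of pericytes and Wnt2 in 6.14% of fibroblasts. Wnt11 was seen in 5.60% of ciliated nuclei, Wnt9a in 4.04% of mesothelial nuclei, Wnt7a in 2.96% of type I nuclei and Wnt7b in 1.87% of ciliated nuclei. Without thinning, Wnt3a was seen in 44.8% of type I nuclei, at a median of 5153 UMIs per nucleus. In lymphocytes, taken as cells that should lack the ligand, the thinned share with a Wnt3a UMI was 0.308% of T or NK nuclei and 0.955% of B nuclei, and Wnt2 was in 0.113% of type I nuclei. Both ligands were thus rarer in these classes than in their leading class.

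The genes with the most similar pattern over the 20 classes were, as a description, Akap5 (Pearson r = 0.89, a marker used to name type I cells), Platr22 (0.85) and Elfn1 (0.83) for Wnt3a. They were Pias1 (0.92), Prkar2a (0.82) and Usp39 (0.80) for Wnt7a, and Pdgfra (0.84), Amph (0.81) and C7 (0.79) for Wnt2. Pdgfra is the platelet-derived growth factor receptor that marks alveolar fibroblasts. For Wnt5a they were Magi2 (0.84), Glt8d2 (0.82) and Grik4 (0.81), and for Wnt4 they included Tusc5 (0.74) and Olfr552 (0.71). For Wnt9a they were Igfbp6 (0.88), Fzd2 (0.85) and Ddb1 (0.83), and for Wnt11 they were Chchd6 (0.88), Ppil6 (0.87) and Iqch (0.87). Wnt7b was closest to AU022754 (0.93), which overlaps it on the other strand, then Ccdc189 (0.86) and Krt18 (0.85). All points share the same 12 libraries.

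In type I cells Wnt3a was the only 1 of the 3 ligands tested that was called in Bleo_Vehicle against PBS_Vehicle. Levels were 224, 165 and 164 CPM in PBS_Vehicle, 218, 137 and 177 in PBS_NVP-BHG712, 29.9, 83.9 and 85.7 in Bleo_Vehicle, and 177, 151 and 154 in Bleo_NVP-BHG712. All 3 Bleo_Vehicle values were below all 9 others, and the other 3 groups overlapped. The log2 fold change was -1.40 (SE 0.26, adjusted p = 0.0104) for Bleo_Vehicle against PBS_Vehicle and 1.26 (SE 0.26, adjusted p = 0.0147) for Bleo_NVP-BHG712 against Bleo_Vehicle. For Bleo_NVP-BHG712 against PBS_NVP-BHG712, where both groups received the inhibitor, it was -0.055 (SE 0.26, adjusted p = 0.995). These are edgeR quasi-likelihood tests of 3 libraries against 3, within 1 fit of all 12, with Benjamini-Hochberg adjustment over all genes. In bulk sums of a class, fewer cells of a subtype and less RNA per cell cannot be told apart.

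Of the 3 ligands tested in type I cells (Wnt3a, Wnt7a and Wnt9a), 1 was called in Bleo_Vehicle against PBS_Vehicle, where 5.23% of 9322 genes were called, and 1 in Bleo_NVP-BHG712 against Bleo_Vehicle, where 6.58% were. The call between the bleomycin groups was lost without Bleo_NVP-BHG712 replicate 1 (adjusted p = 0.0556) or replicate 3 (0.0568), with log2 fold changes of 0.98 to 1.46 over the libraries left out. With only the libraries compared in the fit, the adjusted p was 0.0686 and 0.0567. The difference between the inhibitor's effect with and without bleomycin was 1.34 on the log2 scale (SE 0.36, adjusted p = 0.157).

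Wnt3a was lowest in Bleo_Vehicle in the larger clusters of the class, c1 (4573 nuclei) and c8 (1703), and the difference passed in c1. Cluster c31, with the other 190 nuclei, was too small in most libraries to be fitted. In cluster c1 Wnt3a was 233, 167 and 168 CPM in PBS_Vehicle and 34, 96.4 and 93.6 in Bleo_Vehicle (log2 fold change -1.24, adjusted p = 0.0207), and in Bleo_NVP-BHG712 it was 187, 160 and 151 (1.10, adjusted p = 0.0355). In cluster c8 it was 153, 148 and 116 CPM in PBS_Vehicle, 12.9, 66.7 and 72.3 in Bleo_Vehicle, and 125, 103 and 184 in Bleo_NVP-BHG712, with similar fold changes of -1.16 and 1.15 that did not pass (adjusted p = 0.182 and 0.204). Cluster c1 made up 53.1%, 54.1% and 62.5% of type I nuclei in Bleo_Vehicle and 66.5% to 87.0% in the other libraries. The thinned share of type I nuclei with a Wnt3a UMI was likewise lowest in Bleo_Vehicle. It was 22.8%, 18.4% and 13.8% in PBS_Vehicle, 2.99%, 8.75% and 8.45% in Bleo_Vehicle, and 15.4%, 15.3% and 13.1% in Bleo_NVP-BHG712.

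Other signals moved with Wnt3a in these nuclei, and their part in the result was not tested. The summed level of the 7 type I markers was 13295 to 16367 CPM in PBS_Vehicle, 6967 to 10843 in Bleo_Vehicle and 12616 to 14768 in Bleo_NVP-BHG712. Its largest part was Rtkn2, at 7374 to 9328 CPM in PBS_Vehicle and 2798 to 5904 in Bleo_Vehicle. Akap5, Clic5, Hopx and Rtkn2 did not overlap between these groups, while Ager, Scel and Spock2 did. Type II markers summed to 122 to 296 CPM in PBS_Vehicle and 143 to 984 in Bleo_Vehicle, and fibroblast markers to 12.6 to 24.4 and 51.2 to 76.5.

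**Figure D3:**
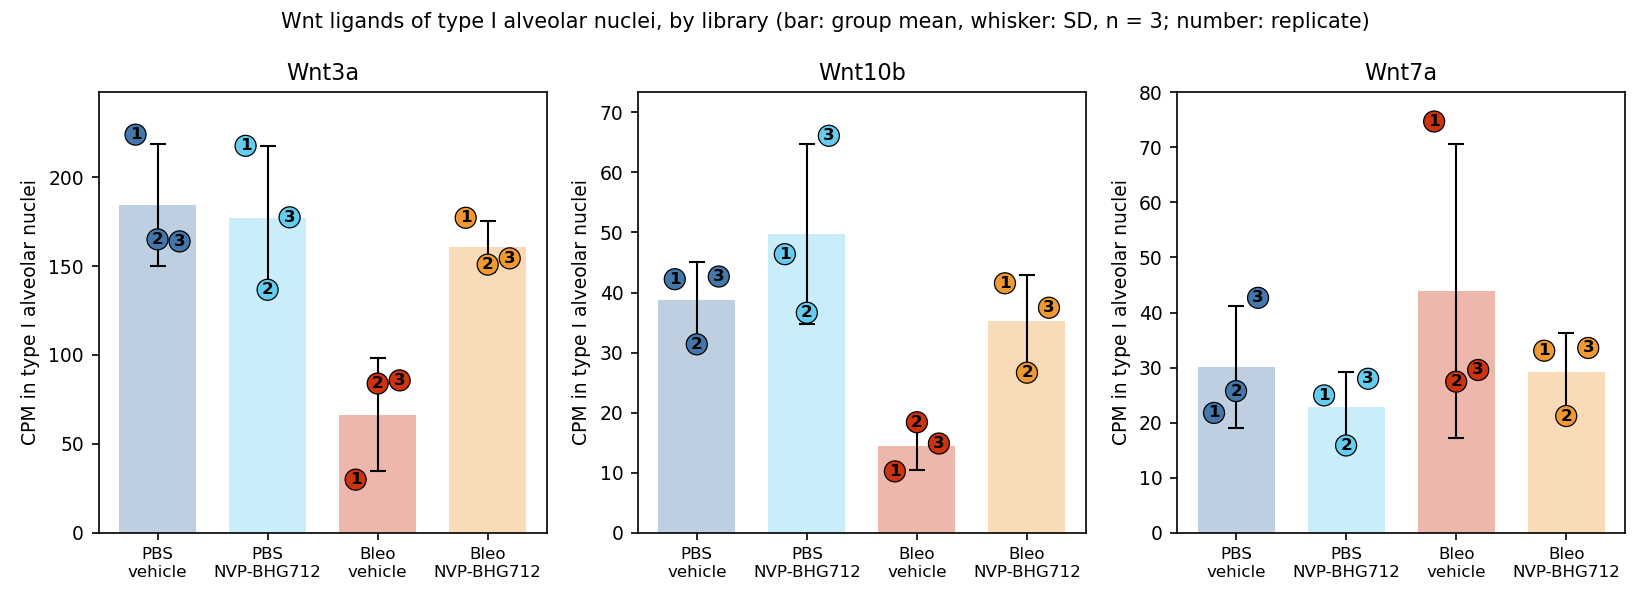
CPM of Wnt3a, Wnt10b and Wnt7a in type I alveolar nuclei, by group; points are libraries, bars are means and whiskers are SD (n = 3 libraries). All 3 Bleo_Vehicle points lie below all others for Wnt3a and Wnt10b, and the Wnt7a groups overlap apart from 1 high Bleo_Vehicle library at 74.7 CPM.

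Wnt7a, the other type I ligand, was 21.8, 25.7 and 42.7 CPM in PBS_Vehicle, 24.9, 15.9 and 28.0 in PBS_NVP-BHG712, 74.7, 27.4 and 29.6 in Bleo_Vehicle, and 33.1, 21.2 and 33.6 in Bleo_NVP-BHG712. Its log2 fold change in Bleo_Vehicle against PBS_Vehicle was 0.55 (SE 0.41, adjusted p = 0.507) and came to -0.041 without Bleo_Vehicle replicate 1. In type II cells Wnt7a, below the filter on low counts, was 0.49, 0 and 2.85 CPM in PBS_Vehicle and 29.1, 13.9 and 5.32 in Bleo_Vehicle, which do not overlap. The UMIs behind these values were 9, 14 and 27 in Bleo_Vehicle and 1, 0 and 1 in PBS_Vehicle.

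Wnt9a in type I cells was 15.1, 17.6 and 8.13 CPM in PBS_Vehicle, 29.9, 13.9 and 11.3 in Bleo_Vehicle, and 5.93, 9.09 and 11.7 in Bleo_NVP-BHG712. The groups overlapped, with log2 fold changes of 0.38 (adjusted p = 0.664) and -0.91 (adjusted p = 0.221). Wnt7b, below the filter in type I cells, was 0.186, 1.26 and 3.39 CPM in PBS_Vehicle, 0.14, 0 and 1.53 in PBS_NVP-BHG712, 19.7, 7.75 and 3.37 in Bleo_Vehicle, and 2.54, 0 and 0 in Bleo_NVP-BHG712. Over the groups this is 91 UMIs in Bleo_Vehicle and 3 in Bleo_NVP-BHG712, a ratio of CPM of 8.33 with an exact 95% interval of 2.76 to 41.1 that covers counting error only. With the filter left out, Wnt7b was called in Bleo_Vehicle against PBS_Vehicle (log2 fold change 2.88, adjusted p = 0.00443), on the strength of these few UMIs. That fit tested 23354 genes, and its count of all genes called is given at the end. The SEs of Wnt3a, Wnt7a and Wnt9a were also smaller in it, for Wnt3a 0.19 beside 0.26 with the filter.

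In fibroblasts Wnt5a was the ligand that differed between the bleomycin groups. It was 14.4, 16.6 and 6.80 CPM in PBS_Vehicle, 13.9, 18.9 and 8.63 in PBS_NVP-BHG712, 28.0, 17.4 and 22.2 in Bleo_Vehicle, and 3.90, 8.33 and 7.56 in Bleo_NVP-BHG712. All 3 Bleo_NVP-BHG712 values were below all 3 Bleo_Vehicle values, and both groups overlapped with a saline group. The log2 fold change was -1.55 between the bleomycin groups (SE 0.41, adjusted p = 0.0340) and 0.74 for Bleo_Vehicle against PBS_Vehicle (SE 0.36, adjusted p = 0.297).

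The call for Wnt5a did not withstand the loss of single libraries. The fold change stayed between -1.77 and -1.34, but the adjusted p was 0.0562 without Bleo_Vehicle replicate 1, 0.0577 without Bleo_Vehicle replicate 2, and 0.123, 0.0654 and 0.105 without replicates 1, 2 and 3 of Bleo_NVP-BHG712. Those 3 libraries held only 4, 18 and 12 Wnt5a UMIs in fibroblasts. The fibroblast subclusters also differed in share. The alveolar fibroblast-like s0 made up 4.09%, 21% and 46.5% of fibroblasts in Bleo_Vehicle and 41.2% to 62.7% elsewhere, and the fibrotic-like s3 32.7%, 14.3% and 9.29% against 4.49% to 6.18%. The unnamed subcluster s1, led by mitochondrial, ribosomal RNA and haemoglobin genes, made up 42.4%, 42.4% and 19.9% in Bleo_Vehicle and 10.4% to 35.4% elsewhere. The unnamed s5, led by endothelial genes such as Flt1 and Pecam1, made up 6.24%, 4.90% and 1.62% in Bleo_Vehicle and 0% to 5.98% elsewhere. The part of these subclusters in the Wnt5a difference was tested only by the fits that follow. Within s0, without Bleo_Vehicle replicate 1 (19 nuclei, under the minimum), the fold change was -1.35 (adjusted p = 0.0913), without subclusters s1 and s5 it was -1.61 (adjusted p = 0.0503), and without subclusters s3 and s4 it was -1.50 (adjusted p = 0.0240). The thinned share of fibroblasts with a Wnt5a UMI was 1.59%, 1.19% and 2.00% in Bleo_Vehicle and 0%, 1.15% and 0.287% in Bleo_NVP-BHG712.

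Wnt2 in fibroblasts was 99.2, 31.3 and 125 CPM in PBS_Vehicle, 94.5, 41.8 and 144 in PBS_NVP-BHG712, 57.2, 28.3 and 50.6 in Bleo_Vehicle, and 141, 43.0 and 139 in Bleo_NVP-BHG712. Replicate 2 was the lowest library of every group. The log2 fold changes were -0.96 (SE 0.60, adjusted p = 0.455) and 1.37 (SE 0.61, adjusted p = 0.212), and neither passed. With the replicate number as a block they were -0.83 (adjusted p = 0.0373) and 1.27 (adjusted p = 0.00342). However, the numbers showed little pairing of libraries in either comparison, as given with the processing.

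Of the 4 ligands tested in fibroblasts (Wnt2, Wnt4, Wnt5a and Wnt9a), edgeR called 0 in Bleo_Vehicle against PBS_Vehicle, with 0 at an unadjusted p under 0.05 and 0 by DESeq2, where 4.30% of 10405 genes were called. In Bleo_NVP-BHG712 against Bleo_Vehicle 1 of the 4 was called, beside 7.09% of genes. The median log2 fold change of the 4 was -0.77 there, and that of all genes tested -0.03. Wnt4 was 9.86, 4.61 and 6.19 CPM in PBS_Vehicle, 2.54, 6.48 and 8.73 in Bleo_Vehicle, and 0.975, 4.16 and 5.04 in Bleo_NVP-BHG712, and Wnt9a 11.5, 6.45 and 3.09, then 2.54, 6.48 and 6.81, then 0.975, 5.55 and 1.89. These groups overlapped.

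Other signals moved with the fibroblast values, and their part was not tested. Alveolar fibroblast markers summed to 4314 to 5881 CPM in PBS_Vehicle, 1026 to 2869 in Bleo_Vehicle and 4213 to 5935 in Bleo_NVP-BHG712. Fibrotic markers summed to 160 to 226, 447 to 3227 and 201 to 360 CPM. Pericyte markers, a class in which Wnt5a was also seen, summed to 25.4 to 46.1, 45.7 to 205 and 20.2 to 29.1 CPM. The sum of the general fibroblast list was level at 1926 to 2523, 2024 to 2670 and 1934 to 2075 CPM. Its members did not all go the same way. From PBS_Vehicle to Bleo_Vehicle the median of Col1a1 went from 66.8 to 98.2 CPM and that of Tcf21 from 48.4 to 23.9. Each marker of the list overlapped between these groups.

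**Figure D4:**
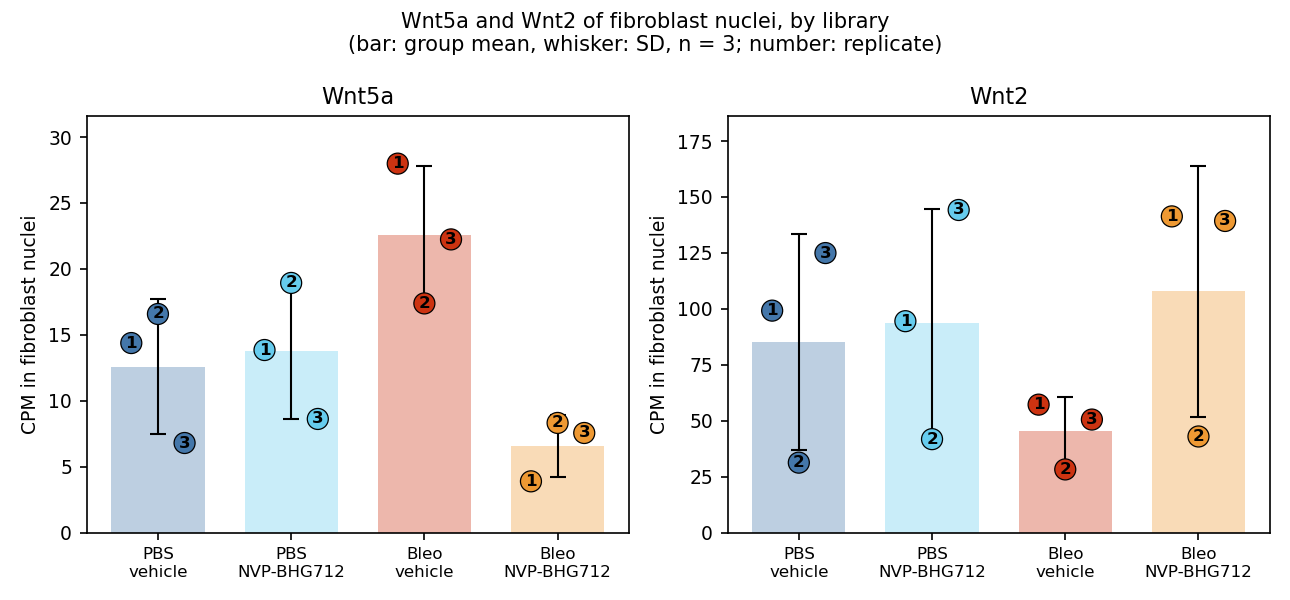
CPM of Wnt5a and Wnt2 in fibroblast nuclei, by group; points are libraries, bars are means and whiskers are SD (n = 3 libraries). For Wnt5a the 3 Bleo_NVP-BHG712 points (3.90 to 8.33) lie below the 3 Bleo_Vehicle points (17.4 to 28.0), and for Wnt2 the groups overlap.

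Beyond fibroblasts and type I cells, ligands passed the filter on low counts in type II cells, ciliated cells and peribronchial fibroblasts, and edgeR called 0 of them there, with 0 at an unadjusted p under 0.05. Wnt4 in pericytes and Wnt9a in mesothelial cells were not tested. Wnt3a in type II cells was 25, 27.7 and 34.2 CPM in PBS_Vehicle, 3.24, 18.8 and 16.4 in Bleo_Vehicle, and 13, 16.1 and 24.2 in Bleo_NVP-BHG712 (log2 fold changes -0.79 and 0.18, adjusted p = 0.485 and 0.903), where 2.12% and 3.34% of 6222 genes were called. All 3 Bleo_Vehicle values were below the PBS_Vehicle values, but the lowest rests on 1 UMI. The sum of the 7 type II markers moved with it, from 10699 to 14224 CPM in PBS_Vehicle to 3575 to 10618 in Bleo_Vehicle. This sum was 11717 to 13541 CPM in Bleo_NVP-BHG712. Abca3, Lamp3, Sftpb and Slc34a2 did not overlap between PBS_Vehicle and Bleo_Vehicle, while Etv5, Sftpa1 and Sftpc did. Sftpc was 2321 to 3521 CPM in PBS_Vehicle and 1431 to 3706 in Bleo_Vehicle. The part of these markers was not tested. In ciliated cells, where 2.72% and 5.39% of 5922 genes were called, Wnt11 was 53.8, 67.9 and 48.1 CPM in PBS_Vehicle and 33.8, 28.6 and 62.5 in Bleo_Vehicle (-0.20, adjusted p = 0.961). Wnt4 there was 55.5, 30.8 and 30.1, against 11.3, 6.88 and 34.6 (-0.84, adjusted p = 0.383).

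Wnt5a in peribronchial fibroblasts was fitted over 10 libraries, since replicate 3 of PBS_NVP-BHG712 and replicate 1 of Bleo_NVP-BHG712 had under 20 such nuclei. It was 69.5, 147 and 197 CPM in PBS_Vehicle, 34.1, 125 and 287 in Bleo_Vehicle, and 73.3 and 58.2 in the Bleo_NVP-BHG712 libraries that entered (0.58, adjusted p = 0.848, and -1.41, adjusted p = 0.661), where 0.484% and 0.176% of 2273 genes were called. The Bleo_Vehicle libraries spanned the values of the other groups. Of the markers of this class, Cdh4 was 2736 to 3112 CPM in PBS_Vehicle and 114 to 1466 in Bleo_Vehicle. Hhip was 3371 to 8480 and 182 to 3395 CPM, and the other markers overlapped between these groups. Their part was not tested.

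Over all nuclei, where the share of each class enters the level, 8 of the 9 ligands passed the filter on low counts and Wnt2b did not. For Bleo_Vehicle against PBS_Vehicle edgeR called 0 of the 8, with 2 at an unadjusted p under 0.05 and 2 by DESeq2, and 2.44% of 14442 genes were called. For Bleo_NVP-BHG712 against Bleo_Vehicle it called Wnt3a alone, with 5 at an unadjusted p under 0.05 and 3 by DESeq2, and 5.51% of genes were called. Wnt3a was 59.3, 39.2 and 52.7 CPM in PBS_Vehicle, 9.10, 23.9 and 26.5 in Bleo_Vehicle, and 61.9, 38.4 and 53.5 in Bleo_NVP-BHG712, with Bleo_Vehicle below the rest. The log2 fold changes were -1.25 (SE 0.33, adjusted p = 0.0644) and 1.35 (SE 0.33, adjusted p = 0.0369), and the latter was lost without any 1 of 5 libraries, the highest adjusted p being 0.137 without Bleo_NVP-BHG712 replicate 1.

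Wnt7b went the other way over all nuclei. It was 1.12, 2.36 and 2.66 CPM in PBS_Vehicle, 9.80, 5.23 and 3.29 in Bleo_Vehicle, and 3.98, 2.03 and 2.04 in Bleo_NVP-BHG712, so that every Bleo_Vehicle library was above every PBS_Vehicle library. The log2 fold change of 1.66 (SE 0.52) did not pass (adjusted p = 0.117), and did so by DESeq2 (adjusted p = 0.0411) and without Bleo_Vehicle replicate 3 (2.01, adjusted p = 0.0347). Wnt2 over all nuclei was 25.3, 11.1 and 44.5 CPM in PBS_Vehicle, 16.3, 8.18 and 10.7 in Bleo_Vehicle, and 44.3, 14.1 and 43.1 in Bleo_NVP-BHG712 (1.58 between the bleomycin groups, adjusted p = 0.110). For Wnt5a the same difference was -1.03 (adjusted p = 0.0723), and for Wnt9a -0.88 (adjusted p = 0.130).

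The inhibitor without bleomycin, and bleomycin with the inhibitor against the inhibitor alone, moved no ligand past the threshold. In PBS_NVP-BHG712 against PBS_Vehicle edgeR called 0 of 8, 0 of 4 and 0 of 3 ligands in all nuclei, fibroblasts and type I cells, with 0 at an unadjusted p under 0.05 in each and 0 by DESeq2, and 0% of genes were called. These counts come from fits without a term for the replicate number, although the numbers were taken as pairing the saline libraries. The replicate block changed no ligand call in this comparison. For Bleo_NVP-BHG712 against PBS_NVP-BHG712 edgeR called 0 ligands in each set, with 1, 1 and 0 at an unadjusted p under 0.05 and 0 by DESeq2, and again 0% of genes. The interaction called 0 ligands in the same 3 sets, with 2, 1 and 1 at an unadjusted p under 0.05, and DESeq2 called 0, 0 and 1 (Wnt3a in type I cells). The genes called there were 0.298% in all nuclei, 0.481% in fibroblasts and 0.236% in type I cells. The 2 comparisons with Bleo_Vehicle share those 3 libraries, so that a low or high Bleo_Vehicle value enters both with opposite sign.

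**Figure D5:**
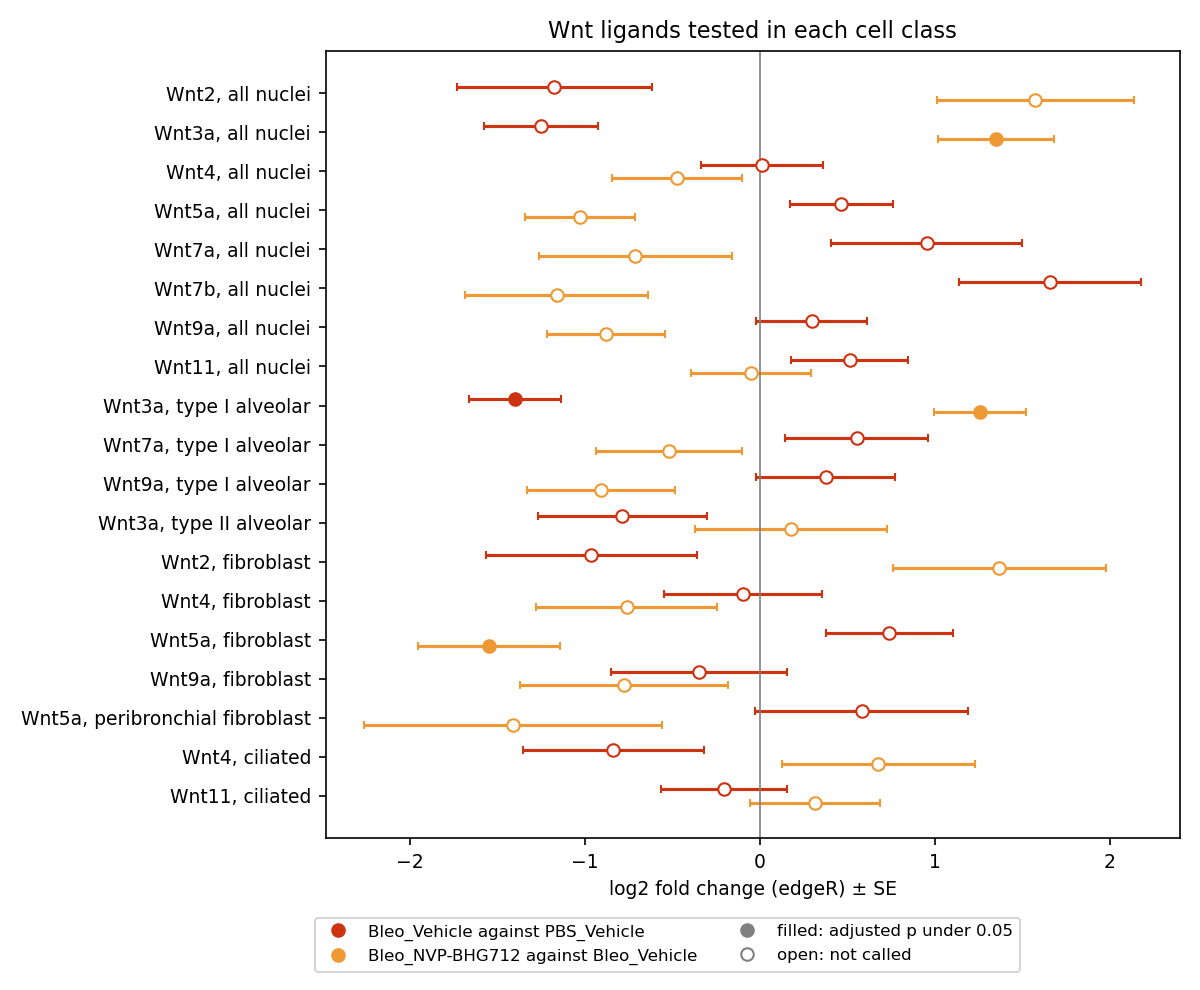
Log2 fold change with its SE for 19 pairs of a ligand and a class, in Bleo_Vehicle against PBS_Vehicle and in Bleo_NVP-BHG712 against Bleo_Vehicle; filled points passed the adjusted p of 0.05. Wnt3a in type I cells is filled in both (-1.40 and 1.26), Wnt5a in fibroblasts (-1.55) and Wnt3a in all nuclei (1.35) in the second.

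Around the ligands, 62 other genes of the pathway were listed by role. In type I cells 22 of them were tested, with 4 higher and 3 lower in Bleo_Vehicle against PBS_Vehicle, where 5.23% of all genes tested were called. Between the bleomycin groups 3 of the 22 were called, beside 6.58% of all genes. Among other ligands, Wnt10b fell with Wnt3a, from 31.4 to 42.7 CPM in PBS_Vehicle to 10.2 to 18.4 in Bleo_Vehicle, and stood at 26.7 to 41.5 in Bleo_NVP-BHG712 (-1.35, adjusted p = 0.0102, and 1.26, adjusted p = 0.0131). The second call was lost without replicate 1 (adjusted p = 0.0556) or 3 (0.0668) of Bleo_NVP-BHG712. Rnf43, a ubiquitin ligase that removes Frizzled receptors from the cell surface, moved alike. It was 200 to 233 CPM in PBS_Vehicle, 64.5 to 134 in Bleo_Vehicle and 180 to 220 in Bleo_NVP-BHG712 (-1.06, adjusted p = 0.0104, and 0.99, adjusted p = 0.0121). The second Rnf43 call was lost without Bleo_NVP-BHG712 replicate 3 (adjusted p = 0.0699).

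Among receptors in type I cells, Ror1 rose from 6.77 to 15.7 CPM in PBS_Vehicle to 52.1 to 157 in Bleo_Vehicle and was 14.0 to 17.6 in Bleo_NVP-BHG712 (2.94, adjusted p = 0.0119, and -2.59, adjusted p = 0.0171). The first call was lost without PBS_Vehicle replicate 3 (adjusted p = 0.0517), and the second without any 1 of the 3 Bleo_NVP-BHG712 libraries (up to 0.0913). Ror1 was also seen in fibroblasts, and fibroblast markers were higher in the same type I nuclei, as given above. The part of fibroblast RNA in the Ror1 values was not tested. Ptk7, a co-receptor, was higher in Bleo_Vehicle (1.25, adjusted p = 0.0413), as was Ccnd1, a cell-cycle cyclin and β-catenin target (2.43, adjusted p = 0.0294). The Ptk7 call was lost without any 1 of 7 libraries (replicates 1, 2 and 3 of PBS_Vehicle, 2 and 3 of Bleo_Vehicle, 1 of PBS_NVP-BHG712 and 3 of Bleo_NVP-BHG712; adjusted p up to 0.146). That of Ccnd1 was lost without any 1 of 4, replicates 1 and 3 of PBS_Vehicle and 1 and 2 of Bleo_Vehicle (up to 0.112). Rspo1, a secreted enhancer of Wnt signals (-1.83, adjusted p = 0.0457), and Nkd1, a feedback inhibitor (2.20, adjusted p = 0.0489), make up the 7 and were named after their values were seen. The Rspo1 call was lost with any library but replicates 1 and 3 of PBS_NVP-BHG712 left out (up to 0.139), and that of Nkd1 with any but Bleo_Vehicle replicate 1 left out (up to 0.190). Axin2 and Lef1 did not pass the filter there.

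In fibroblasts 31 of the 62 were tested, with 4 higher and 0 lower in Bleo_Vehicle against PBS_Vehicle, where 4.30% of all genes tested were called. The receptor Ror1, for which Wnt5a is a known ligand, rose from 278 to 325 CPM to 700 to 1119 and was 253 to 351 in Bleo_NVP-BHG712 (1.68, adjusted p = 0.000504, and -1.57, adjusted p = 0.00109). Its relative Ror2 went from 147 to 197 CPM to 274 to 345 and was 169 to 179 (0.89, adjusted p = 0.00785, and -0.75, adjusted p = 0.0185). The Ror2 calls were lost without PBS_Vehicle replicate 3 (adjusted p = 0.0513) and, between the bleomycin groups, without Bleo_Vehicle replicate 2 or any 1 of the 3 Bleo_NVP-BHG712 libraries (up to 0.0909), while both Ror1 calls held with each library left out. Both receptors had no Bleo_Vehicle library within the range of another group.

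Sfrp1, a secreted Wnt inhibitor, was 1.86 to 4.11 CPM in PBS_Vehicle, 17.4 to 56.0 in Bleo_Vehicle and 1.89 to 2.31 in Bleo_NVP-BHG712 (3.02, adjusted p = 0.00422, and -3.61, adjusted p = 0.00333). Lef1, a TCF/LEF factor and target, was 0.411 to 2.76, 5.86 to 14.0 and 0 to 0.630 CPM. Its change passed (2.67, adjusted p = 0.0364), and between the bleomycin groups it rests on 92 UMIs against 1, a ratio of 36.4 with an exact 95% interval of 6.36 to 1451 (adjusted p = 0.00932). The first Lef1 call was lost with any library but PBS_Vehicle replicate 2, PBS_NVP-BHG712 replicate 1, Bleo_Vehicle replicate 3 or Bleo_NVP-BHG712 replicate 2 left out (up to 0.137), and the second without Bleo_NVP-BHG712 replicate 2 (0.0512). Both Sfrp1 calls held with each library left out. Between the bleomycin groups 6 of the 31 were called, beside 7.09% of all genes tested. Of these 6, Znrf3, a ubiquitin ligase related to Rnf43, was higher in Bleo_NVP-BHG712 (1.34, adjusted p = 0.0306), and Fzd4, a Frizzled receptor named after its value was seen, was lower (-1.67, adjusted p = 0.0450). The Znrf3 call was lost without replicate 1 or 2 of Bleo_Vehicle or replicate 1 or 3 of Bleo_NVP-BHG712 (up to 0.114). That of Fzd4 was lost without any 1 of 8 libraries, all but PBS_Vehicle replicates 2 and 3, PBS_NVP-BHG712 replicate 3 and Bleo_Vehicle replicate 1 (up to 0.169).

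The genes for ligand secretion and the feedback target Axin2 did not pass in fibroblasts. Porcn was 7.37 to 11.3 CPM in PBS_Vehicle and 11.1 to 63.6 in Bleo_Vehicle (1.54, adjusted p = 0.134), Wls 115 to 156 and 133 to 193 (0.17, adjusted p = 0.712), and Axin2 12.0 to 29.8 and 21.5 to 26.7 (0.15, adjusted p = 0.878). In type I cells Porcn was at 1.10 (adjusted p = 0.144), and Wls was 437 to 599 and 357 to 556 CPM. Over all nuclei, 43 of the 62 were tested. Of all genes tested there, 2.44% were called in Bleo_Vehicle against PBS_Vehicle and 5.51% in Bleo_NVP-BHG712 against Bleo_Vehicle. Sfrp1 (2.83, adjusted p = 0.00844) and Ror1 (0.87, adjusted p = 0.0149) were higher in Bleo_Vehicle than in PBS_Vehicle, and in Bleo_NVP-BHG712 against Bleo_Vehicle both were lower (-3.32, adjusted p = 0.00486, and -0.75, adjusted p = 0.0172), while Rnf43 (0.91, adjusted p = 0.0270) and Znrf3 (0.91, adjusted p = 0.0420) were higher. With 1 library left out, only the Sfrp1 call between the bleomycin groups held throughout. The first Sfrp1 call was lost without PBS_Vehicle replicate 2 (adjusted p = 0.0503), and that of Ror1 without replicate 2 or 3 of PBS_Vehicle or 2 of Bleo_Vehicle (up to 0.0645). Between the bleomycin groups, Ror1 was lost without Bleo_Vehicle replicate 2 or any 1 of the 3 Bleo_NVP-BHG712 libraries (up to 0.0940), and Rnf43 without replicate 1 or 2 of Bleo_Vehicle or 1 or 3 of Bleo_NVP-BHG712 (up to 0.115). Znrf3 was lost without any 1 of 7 libraries, the 3 of Bleo_NVP-BHG712, replicates 1 and 2 of Bleo_Vehicle and replicate 2 of each saline group (up to 0.140).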

How the data were processed

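Nuclei of 12 mouse lungs were captured with a 10x Genomics 3′ kit, 1 library per lung. The authors made the deposited matrices, which hold UMI counts per gene and nucleus, with Cell Ranger on mm10. The submitters' processing notes name Cell Ranger 7.0 and Seurat 4.4.1. Groups came from the sample labels; those of Bleo_Vehicle from the sample titles alone. Mice are separate, so p-values measure the spread between animals of a group, with that between runs where a group spans several. Run differences that lie between groups enter the fold change and are not in this spread.

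Nuclei with 200 to 6000 genes and at most 5% mitochondrial UMIs were kept (13, 96 and 1739 barcodes were left out), and 2708 of the 47319 that passed were removed as doublets with scrublet at 0.8% per 1000 nuclei. Scrublet was run through scanpy 1.11.5 in Python 3.11.15. The count per nucleus was scaled to 10000 and logged, and 2000 variable genes without the members gave 30 components. A Harmony correction over libraries (theta 2) was written for this work, and Leiden clustering (20 neighbours, resolution 1) used leidenalg 0.10.2. Fibroblasts were clustered again (20 components, resolution 0.4). Clusters were named from 29 marker lists into 20 classes, and 1493 nuclei stayed unnamed. The members and all lists were chosen with earlier results of these data known.

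Counts were summed per class and library (at least 20 nuclei) and tested with edgeR 4.0.16 in R 4.3.3 (filterByExpr, TMM, robust quasi-likelihood test, 12 libraries in 1 fit, 5 contrasts, Benjamini-Hochberg adjustment over all genes tested, called at an adjusted p under 0.05). CPM in the text is UMIs per 1000000 UMIs of that class and library. The fits were tested on simulated data. The alternatives were DESeq2 1.42.0, DESeq2's size factors in edgeR, no mitochondrial genes, no filter, only the libraries compared, a replicate block, stricter nuclei (at least 500 UMIs, at most 1% mitochondrial), doublets kept, no Harmony, and each library left out. The fits within clusters and subclusters were added after seeing the data. For detection, each nucleus was thinned to 1000 UMIs, or 500 as an alternative, and shallower nuclei were left out (282 of the type I nuclei). Intervals cover counting error only.

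Named genes were all 9 members, Porcn, Wls, Axin2 and Lef1, at most 5 called pathway genes per contrast by adjusted p, and 3 genes per member in likeness, which is Pearson's r of log2(mean CPM + 1) over classes. Genes with predicted symbols were not named. A gene that this rule names is not reported here. The replicate numbers were checked as pairs in fibroblasts by the correlation of deviations from group means. It was 0.646, 0.349 and 0.423 between the saline groups, where the numbers were taken as pairing the libraries, and -0.026 to 0.083 between the bleomycin groups and -0.010 to 0.110 between the vehicle groups, where they were not. By number it was -0.062, 0.217 and 0.157 between Bleo_NVP-BHG712 and PBS_Vehicle. Between Bleo_NVP-BHG712 and PBS_NVP-BHG712 it was -0.080, 0.293 and 0.192. Over all nuclei, replicates 2 and 3 of Bleo_NVP-BHG712 were most like the same number of PBS_Vehicle (r = 0.82 and 0.84). No 2 libraries shared more than 34 barcodes, and no 2 agreed within sampling noise.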

Additional observations from a re-analysis of the deposited data

Results flagged for a closer look

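Among the pathway genes around the ligands, 3 results had an effect of the inhibitor with bleomycin that differed from its effect with saline, by the interaction term of the edgeR fit. This term called 0.298% of all genes tested over all nuclei and 0.481% in fibroblasts. Sfrp1 differed by -3.62 on the log2 scale over all nuclei (adjusted p = 0.0489) and by -4.22 in fibroblasts (adjusted p = 0.0294), and Ror1 by -1.61 in fibroblasts (adjusted p = 0.0258). Each call is lost with single libraries left out. Sfrp1 over all nuclei lost it without any 1 of 9 libraries, all but PBS_Vehicle replicate 1 and Bleo_Vehicle replicates 1 and 3 (adjusted p up to 0.191). In fibroblasts Sfrp1 lost it without any 1 of 6, replicates 2 and 3 of PBS_Vehicle, 1 of PBS_NVP-BHG712 and the 3 of Bleo_NVP-BHG712 (up to 0.161). Ror1 there lost it without any 1 of 6, replicate 3 of PBS_Vehicle, 1 and 2 of PBS_NVP-BHG712, 2 of Bleo_Vehicle, and 1 and 3 of Bleo_NVP-BHG712 (up to 0.101). The sizes rest on the Bleo_Vehicle libraries, the only ones in which both genes were high, and these share no run with another group. No ligand among the 9 passed this test. With 3 libraries per group, no library was tested as a single outlier.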

How the results depend on the processing

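The leading class of each ligand but Wnt2b, which was not placed, was the same with stricter nuclei, with doublets kept and without Harmony. For Wnt2b mesothelial cells led with stricter nuclei (median 5.24 CPM) and without Harmony (5.11 CPM), but not in the main setting. Of the named values, 343 kept their side of the threshold under the settings other than leaving out a library, 14 passed it newly and 27 lost it, and over single libraries left out the counts were 412, 3 and 88, with 1 reversed (Wnt7a in type I cells, Bleo_Vehicle against PBS_Vehicle, -0.041 without Bleo_Vehicle replicate 1 and 0.89 at most, without PBS_Vehicle replicate 3). Ligands called over all nuclei in Bleo_Vehicle against PBS_Vehicle went from 0 to 2 with DESeq2 (Wnt3a, Wnt7b), 1 with the replicate block (Wnt3a) and 0 to 2 over libraries left out (2, Wnt3a and Wnt7b, without Bleo_Vehicle replicate 3). In Bleo_NVP-BHG712 against Bleo_Vehicle they went from 1 to 3 with DESeq2 or the replicate block (Wnt3a, Wnt2 and Wnt5a in both), 0 without the filter, with only the libraries compared or with stricter nuclei, and 0 to 1 over libraries left out. In fibroblasts, Bleo_Vehicle against PBS_Vehicle went from 0 to 1 without the filter or with the replicate block (Wnt2 in both), the bleomycin groups from 1 to 2 under both settings (0 to 1 over libraries left out), and the interaction from 0 to 2 without the filter (Wnt2 and Wnt5a). In type I cells, Bleo_Vehicle against PBS_Vehicle went from 1 to 2 without the filter (Wnt7b beside Wnt3a) and 0 with only the libraries compared, the bleomycin groups from 1 to 2 and 0 (0 to 1 over libraries left out), and the interaction from 0 to 1 with DESeq2, without the filter and without Bleo_Vehicle replicate 1 (0 to 1 over libraries left out). The cause was not tested. The replicate block changed no other ligand call among these sets. Thinned to 500 UMIs, detection was 7.01% for Wnt3a, 3.55% for Wnt2, 7.85% for Wnt5a, 3.45% for Wnt11, 2.07% for Wnt4, 2.24% for Wnt9a, 1.18% for Wnt7a and 0.643% for Wnt7b, as fewer UMIs show fewer carriers. Other settings, namely another size factor, no mitochondrial genes, doublets kept and no Harmony, left these ligand counts as they were. Counts of all genes called moved more. Over all nuclei, Bleo_Vehicle against PBS_Vehicle had 352, and 992 with DESeq2, 977 with the block, 176 with stricter nuclei and 28 with only the libraries compared. The bleomycin groups had 796, and 1724, 1918, 327 and 526 (75 to 2231 over libraries left out). The interaction had 43, and 351, 358, 22 and, without the filter, 73. In fibroblasts these were 447 (DESeq2 721, block 913, stricter 189, only compared 163, no filter 1324), 738 (block 1375, stricter 358, only compared 429, no filter 1527) and 50 (DESeq2 254, block 347, stricter 30, no filter 721). In type I cells they were 488 (DESeq2 733, block 738, only compared 170, no filter 1451), 613 (DESeq2 925, block 968, no Harmony 360, no filter 1532) and 22 (DESeq2 152, block 129, doublets kept 33, no filter 561). Depth limits the low ligands: Wnt2b was not testable, and Wnt4, Wnt7b, Wnt9a and Wnt11 rest on few UMIs per library in most classes.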
